A study of Rattus norvegicus with 372 samples.

Results

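Mitochondrial ribosomal proteins were followed in primary rat hepatocytes by their probes in the whole transcriptome (WT) TempO-Seq assay, in which a pair of neighbouring oligos bound to the same RNA is joined by a ligase and counted by sequencing. Members were the probes whose gene symbol is Mrpl or Mrps followed by a number, with a mean of at least 10 counts over all 186 wells, whatever their response. The WT table held 81 such probes of 77 symbols, and 79 probes of 76 symbols passed, of 10689 probes of all genes that passed the same minimum. For the 3 genes with 2 tested probes, the probe with the higher mean count is called the main probe and the other the second probe. Of the probes left out, Mrps21l had a mean of 0.02 counts and a second probe of Mrpl1 had 0.17. The members with the lowest means among those kept were Mrpl36 (10.04 counts), Mrpl48 (10.59), Mrps36 (14.16) and Mrps26 (14.83).

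The hepatocytes were kept in collagen sandwich and exposed for 24 h to each of 14 chemicals at a high and a low concentration, in 3 wells per treatment and batch, and the batches were cells isolated from different rats. Controls were vehicle, 0.5% DMSO, in 3 wells of batch 1 and 6 of batch 2, and culture medium alone in as many wells. The chemicals were acetaminophen (10000 and 400 µM), caffeine (10000 and 400 µM), chloramphenicol (450 and 18 µM), diclofenac (400 and 16 µM), doxorubicin (2 and 0.08 µM), indomethacin (300 and 12 µM), isoniazid (10000 and 400 µM), ketoconazole (15 and 0.6 µM), naproxen (2000 and 80 µM), ranitidine (4000 and 160 µM), simvastatin (60 and 2.4 µM), sulfasalazine (100 and 4 µM), valproic acid, labelled Valproic (10000 and 400 µM), and WY14643 (200 and 8 µM). The wells of a treatment in a batch are technical replicates of the cells of 1 rat, so p-values within a batch measure the spread between wells and not between animals.

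The mitochondrial ribosome translates the few messages of the mitochondrial genome, all of which encode subunits of the respiratory chain and ATP synthase. Its RNA comes from the mitochondrial genome, whereas its proteins are encoded in the nucleus, made in the cytosol and imported. The proteins fall into those with a counterpart in the bacterial ribosome and those found only in mitochondria. Chloramphenicol binds the peptidyl transferase centre of bacterial ribosomes and, because of their shared ancestry, also blocks protein synthesis by mitochondrial ribosomes, while cytosolic ribosomes are insensitive to it. Members tested comprised 30 probes of bacterial-type and 20 of mitochondria-specific proteins of the large subunit, and 17 and 11 of the small subunit. Despite their names, Mrps30 and Mrps18a belong to the large subunit. Mrps36 was left in no class, because this protein, which RefSeq lists as Kgd4, is a part of the 2-oxoglutarate dehydrogenase complex rather than of the ribosome.

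Promoters of nuclear genes for mitochondrial proteins are known for binding sites of NRF1 and of the ETS family factor GABP (NRF2), and those of many ribosomal protein genes for YY1. RefSeq starts of the rat assembly GRCr8 were available for 61 of the 76 member genes, as 63 entries, each covering 250 bases before and 50 after the start. Both strands were searched. The NRF1 letters GCGCATGCG occurred in 5 of the 63 entries (7.94%) against 1.52% of all 33469 entries, the ETS letters CCGGAAG in 21 (33.3%) against 8.75%, the YY1 letters AAGATGGCG in 9 (14.3%) against 1.73% and the cyclic AMP response element TGACGTCA in 1 (1.59%) against 1.83%. A match describes the sequence and does not show that a factor binds. The 250 bases upstream of 4 genes are printed, because these genes carry the contrasts described further on. Mrps18b was called higher, by its main probe, in more high-concentration treatments than any other member. Mrps10 had the largest increase with diclofenac, Mrps6 the largest with acetaminophen, and Mrpl55 the largest decrease with acetaminophen. The capitals mark motif letters. The stretches are chr20:2842756-2843005 on the plus strand for Mrps18b, chr9:21122454-21122703 on the minus strand for Mrps10, chr11:44778417-44778666 on the plus strand for Mrps6 and chr10:44488003-44488252 on the plus strand for Mrpl55.
Mrps18b: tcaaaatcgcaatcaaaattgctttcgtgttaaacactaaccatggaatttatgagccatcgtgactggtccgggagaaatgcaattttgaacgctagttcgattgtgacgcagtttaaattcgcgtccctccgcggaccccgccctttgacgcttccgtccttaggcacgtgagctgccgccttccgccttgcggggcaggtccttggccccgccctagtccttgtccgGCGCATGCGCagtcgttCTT
Mrps10: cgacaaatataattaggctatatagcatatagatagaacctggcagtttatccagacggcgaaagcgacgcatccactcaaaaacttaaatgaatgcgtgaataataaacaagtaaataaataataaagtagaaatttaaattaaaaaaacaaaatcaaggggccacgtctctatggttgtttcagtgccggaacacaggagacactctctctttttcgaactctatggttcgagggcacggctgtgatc
Mrps6: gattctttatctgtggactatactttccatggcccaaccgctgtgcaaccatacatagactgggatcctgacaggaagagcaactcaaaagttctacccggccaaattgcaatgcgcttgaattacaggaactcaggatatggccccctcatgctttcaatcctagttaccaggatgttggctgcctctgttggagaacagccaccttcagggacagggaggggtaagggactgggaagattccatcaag
Mrpl55: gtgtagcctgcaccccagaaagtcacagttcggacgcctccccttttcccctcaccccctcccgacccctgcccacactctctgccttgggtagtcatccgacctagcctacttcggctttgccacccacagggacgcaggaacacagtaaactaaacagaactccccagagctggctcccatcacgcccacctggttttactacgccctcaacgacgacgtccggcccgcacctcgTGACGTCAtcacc
In Mrps18b the NRF1 letters lie on both strands directly upstream of the start, and the last capitals are the first bases of an ETS match that crosses it. Mrps10 held an ETS match from the start on and a YY1 match within the transcript, both past the printed stretch. Mrpl55 was the only member entry with the cyclic AMP response element, 13 bases before its start, and the window of Mrps6 held none of the motifs.

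A WT well of batch 1 had between 2709504 and 8948654 reads (median 6210462) and a well of batch 2 between 2289425 and 8975207 (median 7220136), which leaves low members such as Mrps36, with 3 to 16 counts in the vehicle wells, imprecise. Of the hepatocyte markers, 8 of 8 were tested, and their summed level lay between 29043.3 and 37698.2 CPM (the reads of a probe as a share of all reads of its well, on a fixed scale) in vehicle wells. Markers of Kupffer cells and leukocytes (4 of 7 genes passed the minimum count) summed to 26.5 to 46.4 CPM, of stellate cells and fibroblasts (1 of 5) to 20.2 to 128.3 CPM, of cholangiocytes (3 of 5) to 37.7 to 50.6 CPM and of endothelial cells (0 of 5) to 1.7 to 3.8 CPM, with Krt7 at 0 in every vehicle well. Because the batches differed, wells are set beside vehicle of their own batch, which for batch 1 and batch 2 was 38.2 to 46.4 and 26.5 to 36.9 CPM for Kupffer cell and leukocyte markers, 77.9 to 128.3 and 20.2 to 32.6 CPM for stellate cell and fibroblast markers and 37.7 to 46.3 and 40.8 to 50.6 CPM for cholangiocyte markers. In batch 1 the vehicle wells shared a plate with 8 of the chemicals, and acetaminophen, chloramphenicol, indomethacin, ketoconazole, sulfasalazine and WY14643 were on a plate without vehicle, so in that batch plate and treatment cannot be told apart for them. In batch 2 every plate had vehicle wells. In wells of whole cultures, fewer cells with a transcript and less of it per cell cannot be told apart.

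Each probe was compared with vehicle in each batch by the quasi-likelihood test of edgeR, and a DEG was a probe with a Benjamini-Hochberg adjusted p under 0.05 over all 10689 probes in batch 1 and in batch 2, with the same sign. L2FC values are log2 fold changes after TMM scaling, given as the mean of the batches unless a batch is named, while CPM values are without that scaling. All treatments of a batch share its vehicle wells, so their values are set side by side and not counted as independent. Over the 14 high concentrations, members were called higher in 147 of 1106 pairs of probe and treatment (13.3%) and lower in 72 (6.51%). Of all tested probes, 13.5% of pairs were called higher and 14.4% lower. The members' share of higher calls was thus near that of all probes, and their share of lower calls was below it. The split depends on the scaling, since without a scaling factor members were called higher in 115 pairs (10.4%) and lower in 104 (9.4%), against 12% and 17% of pairs of all probes. At low concentrations 22 of 1106 pairs were called, all higher (1.99%), against 1.89% of pairs of all probes called higher and 1.48% lower (3.37% in either direction), and 21 of the 22 were in WY14643 8 µM.

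**Figure D1:**
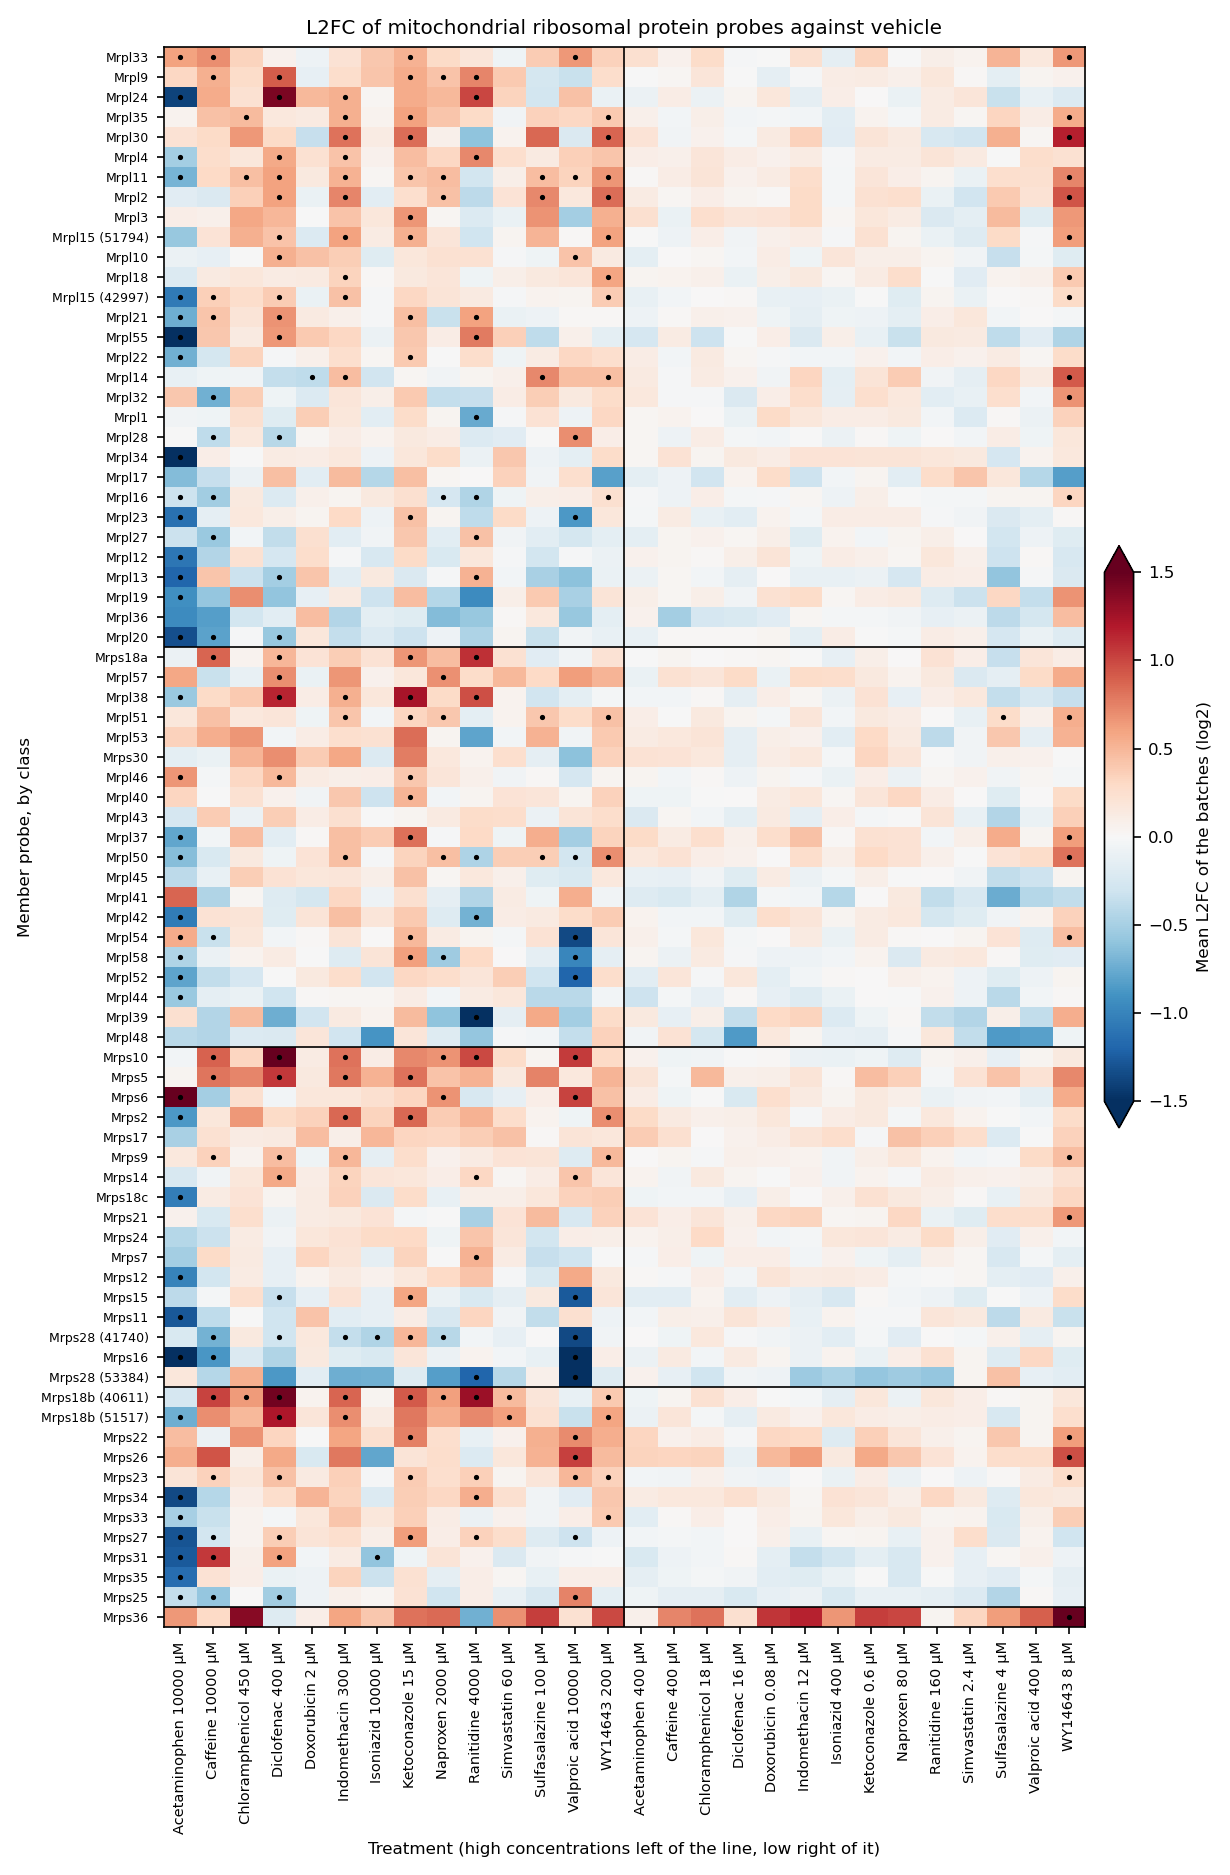
Mean L2FC of the batches (colour, log2, cut off at 1.5 in either direction) for 79 member probes (rows, by class: bacterial-type and mitochondria-specific large subunit, bacterial-type and mitochondria-specific small subunit, and Mrps36 at the bottom) in 28 treatments (columns), with a dot where a probe was called in both batches. Dots are dense in the high-concentration columns left of the line and, among low concentrations, lie in WY14643 8 µM apart from 1 in sulfasalazine 4 µM, while the column of acetaminophen 10000 µM is mostly blue.

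The number of members called differed widely between chemicals. Acetaminophen was the treatment with most lower calls (33 members), ketoconazole and diclofenac those with most higher calls (26 and 23), and doxorubicin, isoniazid, simvastatin and chloramphenicol had 1 to 3 calls each. The share of all probes called in either direction differed widely as well. It was 60.8% with acetaminophen, 49.2% with diclofenac and 25.3% with ketoconazole, where 46.8%, 36.7% and 32.9% of members were called. With doxorubicin, isoniazid, simvastatin and chloramphenicol it was 4.48%, 14%, 7.57% and 7.38%, against 1.27%, 2.53%, 2.53% and 3.8% of members. Of the 79 probes, 67 were called in at least 1 high concentration, 24 of them higher only, 16 lower only and 27 higher in some and lower in others. These are 84.8%, 30.4%, 20.3% and 34.2% of the members, against 91.9%, 32.1%, 24.9% and 34.9% of all tested probes.

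**Figure D2:**
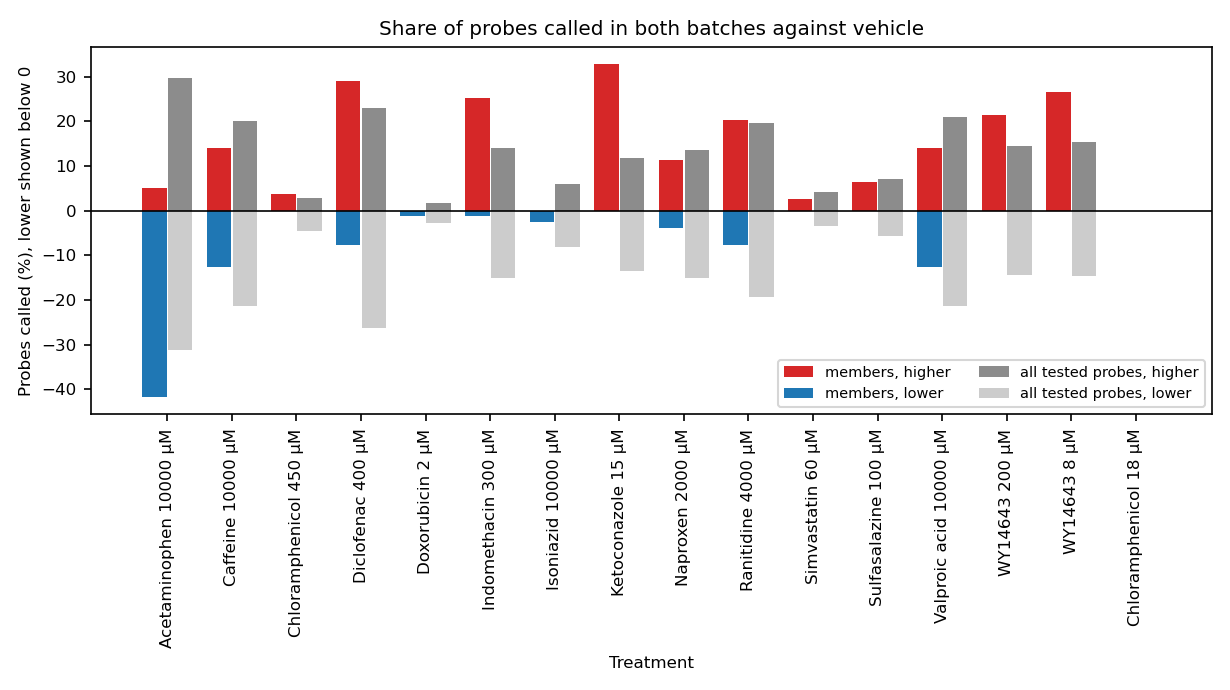
Percentage of the 79 member probes (red and blue bars) and of all 10689 tested probes (grey bars) called against vehicle in both batches, higher above 0 and lower below it, for the 14 high concentrations, WY14643 8 µM and chloramphenicol 18 µM. Among higher calls the bars of the members stand above those of all probes in ketoconazole (26 members), WY14643 8 µM (21), indomethacin (20), WY14643 200 µM (17) and diclofenac (23), and by little in ranitidine (16) and chloramphenicol 450 µM (3), and among lower calls in acetaminophen (33 members).

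Chloramphenicol 450 µM, the treatment that blocks mitochondrial translation directly, gave few calls among members. Mrps18b, Mrpl35 and Mrpl11 rose, no member fell, and most others had a small positive L2FC. The 3 calls of 79 (3.8%) stand beside 2.84% of all probes called higher and 4.54% called lower. By this rule the members' share of higher calls was thus near that of all probes. By batch 2 alone and by both batches in 1 fit it was above that of all probes, as given below. Median L2FC was 0.17 over members, 0.02 over all probes, 0.03 over 66 probes of nuclear encoded respiratory chain subunits and 0.13 over 50 probes of cytosolic ribosomal proteins. L2FC was above 0 in both batches for 57 members and below 0 in both for 7 (40.4% and 35.7% of all probes), and it ranged from -0.32 in Mrpl13 to 1.37 in Mrps36. At an unadjusted p under 0.05 in both batches with the same sign, 15 members passed, against 15.9% of all probes.

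Mrps18b, a small-subunit protein and 1 of 3 mitochondrial relatives of bacterial S18, had 69.61, 63.34 and 77.68 CPM in the chloramphenicol 450 µM wells of batch 1 by its main probe, and 47.55, 48.43 and 43.75 CPM in the vehicle wells. In batch 2 it had 97.88, 87.29 and 85.63 CPM, against 45.75 to 50 CPM (median 48.57) with vehicle. Every treated well was above every vehicle well of its batch. L2FC was 0.54 (SE 0.138, edgeR adjusted p = 0.005553) in batch 1 and 0.73 (SE 0.119, adjusted p = 9.609e-07) in batch 2, a 1.55-fold mean increase. The second probe of Mrps18b had an L2FC of 0.44 (adjusted p = 0.1788) in batch 1 and 0.54 (adjusted p = 0.001359) in batch 2 and was not called, although its treated wells, at 21.2 to 24.06 and 26.85 to 27.72 CPM, also lay above vehicle, at 14.29 to 18.57 and 15.16 to 19.36 CPM.

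Mrpl35, a bacterial-type protein of the large subunit, had 51.76, 57.21 and 50.7 CPM in batch 1 against 32.55, 36.41 and 46.79 CPM with vehicle, and 53.01, 51.22 and 49.94 CPM in batch 2 against 22.78 to 40.23 CPM (median 30.18). Its L2FC was 0.41 (SE 0.126, adjusted p = 0.02784) and 0.54 (SE 0.134, adjusted p = 0.001112) in edgeR. Mrpl11, part of the stalk base at which translation factors bind, had 62.15, 61.29 and 61.01 CPM in batch 1 against 46.34, 42.05 and 51.97 CPM, and 69.19, 60.17 and 71.66 CPM in batch 2 against 36.45 to 46.95 CPM (median 39.62). Its L2FC was 0.34 (SE 0.112, adjusted p = 0.04429) and 0.57 (SE 0.118, adjusted p = 9.523e-05). Treated and vehicle wells did not overlap for either gene in either batch. Against only the vehicle wells of its own plate in batch 2, L2FC was 0.74 for Mrps18b, 0.87 for Mrpl35 and 0.54 for Mrpl11.

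The calls rested on few wells. With the treated wells numbered 1 left out of both batches, 0 members were called by edgeR, and without the vehicle wells numbered 1, or those numbered 2, 1 was called. By DESeq2, 3 were called, with RLE size factors in edgeR 2, the call of Mrpl11 being lost, and without a scaling factor 7 were higher and 0 lower. Batch 1 alone gave 4 members higher, against 3.48% of all probes, batch 2 alone gave 27 against 15.0%, and both batches in 1 fit gave 27 against 16.4%, with 0 lower by each of these rules. No member differed between batches in this treatment by the test of the interaction of batch and treatment in edgeR. Hepatocyte markers summed to 17318.3 to 27176.8 CPM and cholangiocyte markers to 23 to 32.6 CPM in the wells with chloramphenicol 450 µM, both below the range of vehicle, while markers of Kupffer cells and leukocytes, at 26 to 45.4 CPM, overlapped it. Their part in the result was not tested.

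**Figure D3:**
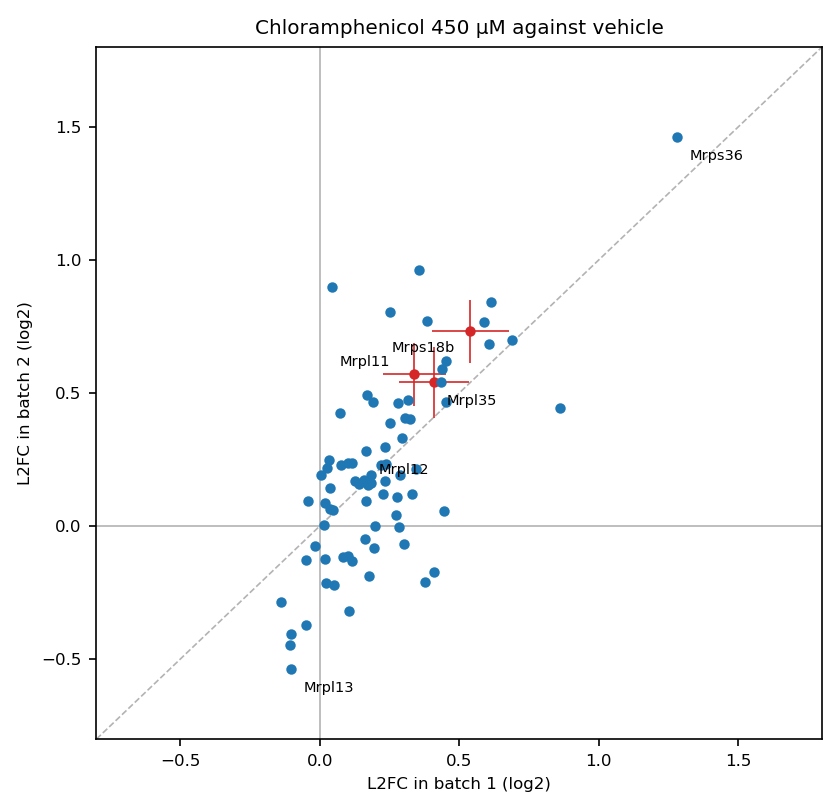
L2FC of chloramphenicol 450 µM against vehicle in batch 1 (x axis, log2) and batch 2 (y axis, log2) for 79 member probes, with called members in red and the standard errors of these as bars, and a dashed line of equal values. Most points lie right of and above 0, with 57 members above 0 in both batches, Mrps36 farthest out and Mrpl13 lowest in batch 2.

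Members next to the catalytic sites were not called by the rule that asks for both batches. Mrpl2 and Mrpl3, which line the region of the peptidyl transferase centre, had L2FC of 0.36 and 0.58, with adjusted p of 0.2364 and 0.3073 in batch 1 and 0.04483 and 0.007473 in batch 2. Mrpl16 and Mrpl27 had L2FC of 0.15 and -0.05, and Mrps12, of the decoding site, 0.12. Mrpl4, a large-subunit protein not counted among these, had 0.17. Of the stalk proteins beside Mrpl11, Mrpl10 had -0.01 and Mrpl12 0.23, and of the other S18 relatives, Mrps18a had 0.05 and Mrps18c 0.20. Mrps30 had 0.51, and Mrpl58, a release factor that became a ribosomal protein, 0.05. Apart from Mrpl11 and Mrps18b none of these members passed the test in both batches. With both batches in 1 edgeR fit, Mrpl2 (adjusted p = 0.006223), Mrpl3 (0.001645), Mrpl16 (0.03981) and Mrps30 (0.01596) were also higher. Mrpl4, Mrpl27, Mrps12, Mrpl10, Mrpl12, Mrps18a, Mrps18c and Mrpl58 did not pass in that fit either.

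Mrps36 had the largest L2FC of all members with chloramphenicol 450 µM, at 1.28 (SE 0.463, adjusted p = 0.07143) in batch 1 and 1.46 (SE 0.410, adjusted p = 0.004011) in batch 2, and was not called. It had 5.52, 3.32 and 3.09 CPM against 1.81, 1.09 and 1.79 CPM in batch 1, and 4.01, 2.62 and 4.57 CPM against 0.44 to 2.22 CPM (median 0.97) in batch 2. Treated and vehicle wells did not overlap, but the counts behind them were low, at 13 to 34 reads with chloramphenicol and 3 to 16 with vehicle. RefSeq lists 3 pseudogenes of Mrps36 and 1 other gene named after it, so its reads could be shared with near copies.

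With chloramphenicol 18 µM no member was called by edgeR or DESeq2, and 0 passed an unadjusted p under 0.05 in both batches. Of all probes, 0.0187% were called and 0.468% passed the unadjusted rule. Mrps18b (main probe) had 49.34, 43.22 and 56.56 CPM in batch 1 and 51.91, 48.86 and 73.45 CPM in batch 2, and its L2FC was 0.23. When the concentrations were compared with each other, which uses no vehicle well, no member was called at 450 over 18 µM by edgeR or DESeq2, and 4 passed an unadjusted p under 0.05 in both batches. Of all probes, 1.66% were called higher and 3.89% lower, and 12.1% passed the unadjusted rule. L2FC of this comparison was 0.40 (adjusted p = 0.05588) and 0.41 (adjusted p = 0.02425) for Mrps18b (main probe) in the batches and 0.14 (adjusted p = 0.4971) and 0.39 (adjusted p = 0.03083) for Mrpl11.

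To see whether any member was particular to chloramphenicol, its high concentration was compared with the mean of the other high-concentration groups of each batch. Here 12 of 79 members were higher (15.2%) and 0 lower, against 13.8% of all probes higher and 9.95% lower. The members' share of higher calls was thus near that of all probes. The largest differences were those of Mrps28 (second probe) at 1.13, Mrpl19 at 0.93 and Mrps36 at 0.93. Mrps28 (main probe) at 0.40, Mrpl12 at 0.37 and Mrpl16 at 0.21 were also called, together with Mrps15, Mrpl15, Mrpl32, Mrpl45, Mrpl20 and Mrpl22. Of the 3 members called against vehicle, none was among them, and Mrps18b (main probe) differed by 0.10. The comparison does not separate a rise with chloramphenicol from falls with the other chemicals. Mrpl12 and Mrpl16 had only 0.23 and 0.15 against vehicle with chloramphenicol, and Mrpl16 was called lower in 4 of the high concentrations. The count was 3 without the treated wells numbered 1 or 2 and 5 without those numbered 3, and 9 members were called by DESeq2. Without a scaling factor 28 members were higher and 0 lower, and the median L2FC of all probes in that comparison was then 0.23 and that of the members 0.28.

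Among other genes of mitochondrial gene expression, 8 of 87 probes rose with chloramphenicol 450 µM (9.20%) and 0 fell, beside the 2.84% and 4.54% of all probes given above. The lists were chosen with results of these data known, so these shares are a description. Among assembly factors of the mitochondrial ribosome 3 of 21 probes rose and 0 fell (median L2FC 0.37), and those that rose were Mrm3, a methyltransferase of the large ribosomal RNA (0.70), Rpusd4, a pseudouridine synthase (0.63), and Rbfa, a factor of the small subunit (0.54). Hspd1, the mitochondrial chaperonin, rose by 0.95, as 1 of 11 chaperones and proteases (median 0.23). Qrsl1, which helps to make mitochondrial glutaminyl-tRNA, rose by 0.85 as 1 of 20 probes of aminoacyl-tRNA synthesis (median 0.27). Tfb2m, a mitochondrial transcription factor (0.56), and Polg, the mitochondrial DNA polymerase (0.43), rose among 10 probes of mitochondrial DNA maintenance and transcription (median 0.08). Ptcd3, a small-subunit protein under another name, rose by 0.39, the only one of 6 such probes. None of 11 translation factors (median 0.15) and none of 8 regulators of mitochondrial gene expression (median 0.40) was called. Messages encoded by mitochondrial DNA had no tested probe.

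**Figure D4:**
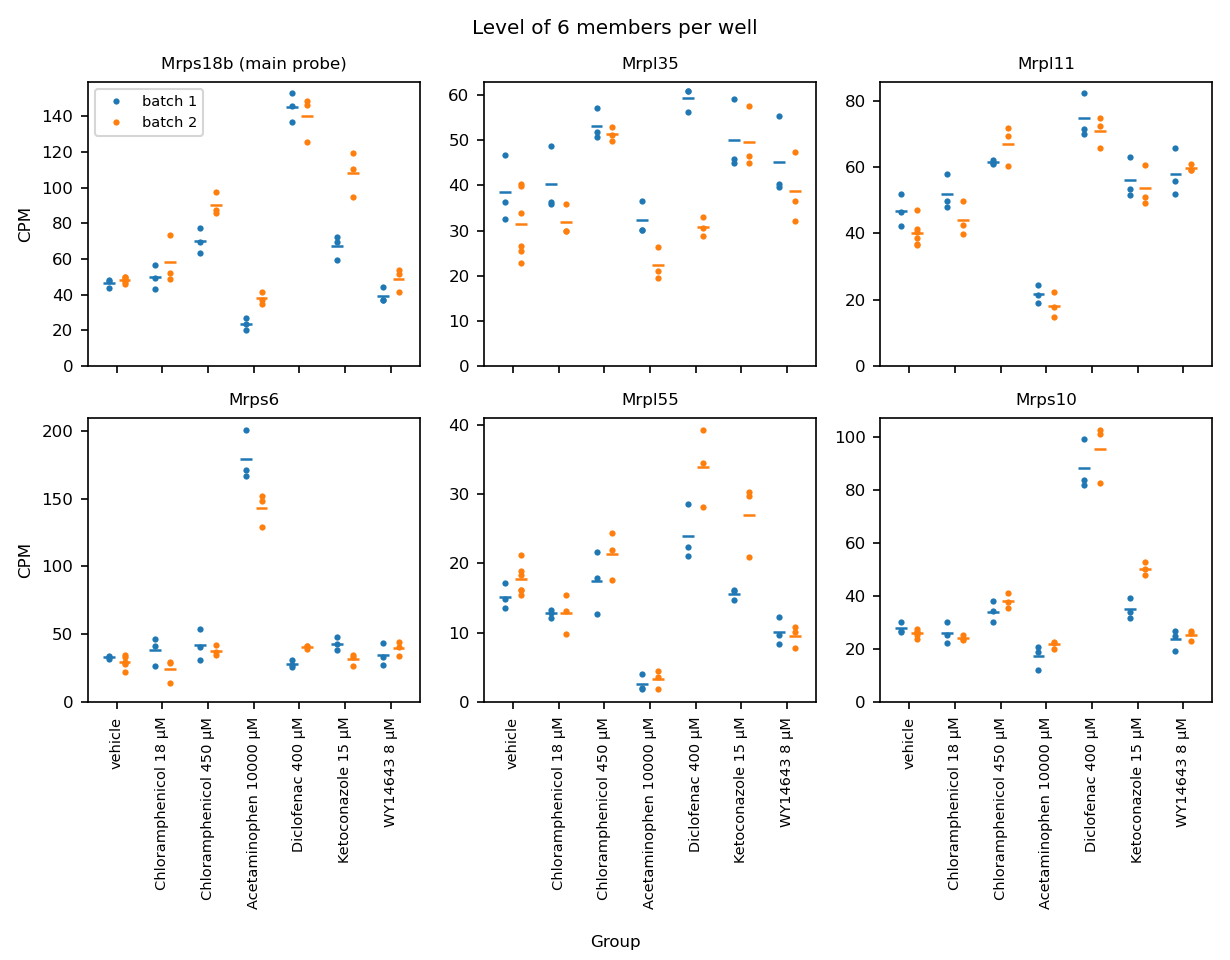
CPM per well (y axis, linear from 0) of 6 members in vehicle and 6 treatments (x axis), batch 1 in blue and batch 2 in orange, with a line at the mean of each group. Mrps18b rises with chloramphenicol 450 µM and further with diclofenac, Mrps6 stands above all other groups with acetaminophen (128.8 to 200.43 CPM), and Mrpl55 falls there to 1.91 to 4.5 CPM.

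With acetaminophen 10000 µM, 33 of the 79 members fell and 4 rose, whereas 31.1% of all probes were called lower and 29.7% higher. Without a scaling factor 53 were lower and 1 higher, and the median over members was -0.79 and over all probes -0.44. Median L2FC was -0.39 over members, -0.04 over all probes, -0.25 over respiratory chain subunits and 0.98 over cytosolic ribosomal proteins. Mrpl55, a bacterial-type protein of the large subunit, fell most. It had 1.92, 2 and 4.03 CPM in batch 1 against 14.88, 17.11 and 13.57 CPM with vehicle, and 3.67, 4.5 and 1.91 CPM in batch 2 against 15.42 to 21.25 CPM (median 17.27). The groups did not overlap, and L2FC was -2.07 (SE 0.308, edgeR adjusted p = 1.715e-08) and -2.02 (SE 0.216, adjusted p = 2.038e-13). Mrps16 (-2.02), Mrpl34 (-1.68), Mrpl24 (-1.39), Mrps34 (-1.35), Mrpl20 (-1.32) and Mrps27 (-1.29) followed, and the stalk protein Mrpl12 fell by 1.08. The members that rose were Mrps6, Mrpl46 (0.66), Mrpl33 (0.60) and Mrpl54 (0.56).

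Mrps6, a bacterial-type protein of the small subunit, had 166.78, 200.43 and 171.15 CPM with acetaminophen in batch 1 against 31.58, 34.23 and 33.39 CPM, and 148.21, 151.8 and 128.8 CPM in batch 2 against 21.94 to 34.45 CPM (median 29.22). L2FC was 2.87 (SE 0.219, adjusted p = 4.485e-19) and 2.67 (SE 0.172, adjusted p = 9.711e-24), a 6.83-fold mean increase that set it apart from all other members in this treatment. RefSeq places the gene Slc5a3, a myo-inositol transporter, within the span of Mrps6, the WT table has no probe of that symbol, and the position of the Mrps6 probe was not given in the sources used here, so reads of an overlapping transcript cannot be told apart from those of Mrps6. Mrps6 also rose with valproic acid (1.01) and naproxen (0.68). In the acetaminophen wells hepatocyte markers summed to 17188.8 to 20525.7 CPM in batch 1 and 23026.4 to 29816.5 CPM in batch 2, below vehicle in both. Markers of stellate cells and fibroblasts summed to 12.6 to 29 CPM and 5.8 to 11.1 CPM, also below vehicle, and those of Kupffer cells and leukocytes to 21.5 to 31.6 CPM, below vehicle, and 19.1 to 34 CPM, overlapping it. The part of these in the result was not tested.

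Ketoconazole 15 µM raised 26 members and lowered none, against 11.7% of all probes called higher and 13.6% lower, and median L2FC was 0.38 over members, 0.22 over respiratory chain subunits and 0.68 over cytosolic ribosomal proteins. Without a scaling factor 17 were higher and 1 lower. Mrpl38, a mitochondria-specific protein of the large subunit, rose most. It had 44.4, 43.99 and 40.9 CPM in batch 1 against 23.47, 21.3 and 22.32 CPM, and 59.89, 52.87 and 58.63 CPM in batch 2 against 17.86 to 26.39 CPM (median 21.61), without overlap. L2FC was 1.04 (SE 0.164, adjusted p = 4.511e-07) and 1.44 (SE 0.141, adjusted p = 2.863e-14). Mrps18b (main probe, 0.92), Mrps2 (0.86), Mrpl30 (0.84), Mrpl37 (0.82) and Mrps5 (0.81) also rose. Mrps28 (main probe), lower in several other treatments, rose by 0.50. Leaving out the treated wells numbered 2 reduced the count to 13. Hepatocyte markers in these wells summed to 16116.9 to 17004.9 CPM and 19525 to 20900.4 CPM, below vehicle. Kupffer cell and leukocyte markers, at 35.2 to 42.5 and 20.9 to 25.2 CPM, were below it in batch 2 and overlapped it in batch 1, and stellate cell and fibroblast markers, at 67.5 to 76.8 and 18.5 to 20.4 CPM, were below it in batch 1 and overlapped it in batch 2. The part of these was not tested.

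Indomethacin 300 µM raised 20 members and lowered 1, with 14.0% of all probes higher and 15.1% lower, and a median L2FC of 0.29 over members against 0.01 over all probes. Mrps18b (main probe), the highest, had 63.34, 54.52 and 79.16 CPM in batch 1 and 103.33, 81.64 and 87.7 CPM in batch 2, each well above vehicle, with an L2FC of 0.74 (SE 0.138, adjusted p = 8.95e-06) and 1.00 (SE 0.118, adjusted p = 3.844e-11). Mrps2 (0.86), Mrpl30 (0.82), Mrps10 (0.81) and Mrps5 (0.79) followed. Mrps28 (main probe) fell by 0.36, from 33.88 to 38.59 CPM with vehicle to 18.41 to 24.64 CPM in batch 1 and from 35.59 to 39.58 CPM to 27.17 to 33.46 CPM in batch 2. Without a scaling factor, 7 members were higher and 3 lower. Markers lay below vehicle in both batches, with hepatocyte markers at 20881.6 to 24843 and 21045.4 to 21760 CPM, Kupffer cell and leukocyte markers at 16.7 to 21.8 and 12.4 to 14.3 CPM, stellate cell and fibroblast markers at 32.8 to 49.1 and 9.5 to 10.9 CPM and cholangiocyte markers at 18.1 to 20.1 and 17.7 to 24.7 CPM. Their part in the result was not tested.

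WY14643, an agonist of the lipid-sensing receptor PPARα, was the only chemical that changed many members at its low concentration. At 200 µM 17 members rose and 0 fell, with 14.4% of all probes higher and 14.3% lower, and at 8 µM 21 rose and 0 fell, with 15.3% higher and 14.6% lower. Median L2FC was 0.27 and 0.25 over members, 0.37 and 0.52 over respiratory chain subunits, and 0.03 and -0.11 over cytosolic ribosomal proteins. The split of calls depended on scaling. Without a scaling factor 4 were higher and 5 lower at 200 µM and 6 higher and 13 lower at 8 µM, because the median of all probes shifted to -0.26 and -0.31, while members stood 0.29 and 0.28 above that median, as they did with TMM scaling (0.29 and 0.27).

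At WY14643 200 µM Mrpl30, a bacterial-type protein of the large subunit, rose most of the called members, by 0.88 (SE 0.264, adjusted p = 0.005637) in batch 1 and 0.86 (SE 0.233, adjusted p = 0.001588) in batch 2. Its wells had 177.67, 164.27 and 87.46 CPM against 93.16, 72.82 and 125 CPM in batch 1, which overlapped, and 98.3, 137.3 and 119.05 CPM against 54.24 to 82.58 CPM (median 78.17) in batch 2, which did not. At 8 µM Mrpl30 rose by 1.17, Mrps26 by 0.96, Mrpl2 by 0.95, Mrpl14 by 0.91 and Mrpl50 by 0.81. The largest value was that of Mrps36 at 1.51, with 3.07, 4.72 and 2.94 CPM against 1.81, 1.09 and 1.79 CPM in batch 1 and 3.75, 1.93 and 2.95 CPM against 0.44 to 2.22 CPM in batch 2, where a treated well lay within the range of vehicle. Hepatocyte markers with 8 µM, at 29921.4 to 31584.6 CPM, lay within the range of vehicle in batch 1, and at 28728.7 to 31473.8 CPM below it in batch 2. With 200 µM they lay below it in both, at 24020.6 to 28660.7 and 28553.2 to 29245.6 CPM, as did cholangiocyte markers, at 25 to 31.9 and 33.6 to 36.9 CPM, and their part was not tested. Leaving out the treated wells numbered 1 or 2 reduced the count at 200 µM to 10 or 11.

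Diclofenac 400 µM moved members in both directions. It raised 23 and lowered 6, against 23.0% of all probes higher and 26.2% lower, with medians of 0.09 over members, -0.39 over respiratory chain subunits and 0.44 over cytosolic ribosomal proteins, and without a scaling factor 23 were higher and 2 lower. Mrps10, a bacterial-type protein of the small subunit, had 83.6, 81.77 and 99.22 CPM in batch 1 against 26.98, 30.04 and 26.25 CPM, and 82.44, 102.79 and 100.94 CPM in batch 2 against 23.92 to 27.47 CPM (median 26.25). All treated wells were far above vehicle, and L2FC was 1.55 (SE 0.181, adjusted p = 2.339e-11) and 1.71 (SE 0.108, adjusted p = 4.844e-24), a 3.10-fold mean increase. Mrps18b (1.44 and 1.21 by its probes), Mrpl24 (1.42), Mrpl38 (1.15) and Mrps5 (1.06) also rose, and Mrpl20 (-0.57), Mrps25 (-0.52) and Mrpl13 (-0.51) fell. In these wells hepatocyte markers summed to only 5858.6 to 7947.8 CPM, the lowest of all treatments, with 8 of 8 called lower. Cholangiocyte markers, at 6.8 to 10.5 and 6.9 to 9.8 CPM, and Kupffer cell and leukocyte markers, at 29.5 to 30.6 and 20.9 to 22.6 CPM, were also below vehicle, and the part of these in the result was not tested.

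Ranitidine 4000 µM raised 16 members and lowered 6, with 19.6% of all probes higher and 19.3% lower, and without a scaling factor 11 were higher and 9 lower. Mrps18b (main probe) rose most, to 85.8, 107.43 and 92.55 CPM in batch 1 and 131.36, 116.64 and 120.97 CPM in batch 2, with an L2FC of 1.18 (SE 0.138, adjusted p = 3.967e-11) and 1.39 (SE 0.117, adjusted p = 1.386e-17). Mrpl39, a mitochondria-specific protein of the large subunit, fell most, by 2.62 (SE 0.517, adjusted p = 1.81e-05) and 1.01 (SE 0.383, adjusted p = 0.01982) on the log2 scale. It had 1.05, 0.71 and 1.51 CPM against 7.14, 5.46 and 10.18 CPM in batch 1, and 1.34, 3.59 and 1.15 CPM against 3.54 to 4.72 CPM (median 4.15) in batch 2, where 1 treated well lay within the range of vehicle, and the treated wells held 4 to 30 reads. Hepatocyte markers summed to 10648.3 to 15758.9 CPM here, Kupffer cell and leukocyte markers to 16 to 26.4 and 17.2 to 24.6 CPM and stellate cell and fibroblast markers to 30 to 45.1 and 4.5 to 8.1 CPM, all below vehicle, and their part was not tested.

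Caffeine 10000 µM and valproic acid 10000 µM each raised 11 members and lowered 10. Background shares were 20.0% higher and 21.4% lower for caffeine, and 20.9% and 21.4% for valproic acid, and without a scaling factor the counts were 8 and 14 for caffeine and 24 and 8 for valproic acid. With caffeine Mrps31 rose by 1.06, to 101.58, 110.31 and 74.1 CPM in batch 1 against 43.44, 54.25 and 40.71 CPM and to 65, 74.24 and 93.25 CPM in batch 2 against 33.75 to 52.48 CPM (median 43.06). Mrps16 fell by 0.87, to 11.15, 15.79 and 15.24 CPM against 29.89, 33.86 and 22.5 CPM and to 11.7, 14.47 and 19.15 CPM against 23.12 to 32.3 CPM (median 29.97). Neither gene had overlapping wells in either batch.

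With valproic acid Mrps10 rose by 1.05, to 60.2, 51.79 and 56.15 CPM in batch 1 and 89.36, 70.37 and 71.65 CPM in batch 2, all above vehicle. Mrps28, a bacterial-type protein of the small subunit, fell by both of its probes, by 2.33 (second probe) and 1.35 (main probe). Its second probe had 4.42, 2.33 and 2.99 CPM against 11.86, 16.38 and 27.14 CPM in batch 1 and 4.41, 2.68 and 2.56 CPM against 7.78 to 14.97 CPM (median 9.71) in batch 2, without overlap. Mrps16 (-1.49), Mrpl54 (-1.35), Mrps15 (-1.26) and Mrpl52 (-1.19) also fell, and Mrps26 (1.02) and Mrps6 (1.01) rose. The sum of hepatocyte markers was 14448.6 to 19832.9 CPM with valproic acid and 17688.3 to 24201 CPM with caffeine, below vehicle in both. Kupffer cell and leukocyte markers were below it as well, at 18.5 to 20.7 and 13.1 to 14.3 CPM with valproic acid and 10.3 to 13.1 and 5.6 to 14.6 CPM with caffeine, and so were stellate cell and fibroblast markers, at 17.2 to 22.8 and 5 to 7.5 CPM and at 19.8 to 26.8 and 4.7 to 7 CPM. Cholangiocyte markers were above vehicle with valproic acid, at 56.9 to 71.3 and 51 to 77.2 CPM. The part of these in the results was not tested.

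Naproxen 2000 µM raised 9 members and lowered 3 (all probes 13.6% higher and 15.0% lower). Mrpl57 rose by 0.69, with 11.23, 11.14 and 10.45 CPM against 7.26, 9.28 and 4.82 CPM in batch 1 and 10.5, 16.43 and 13.33 CPM against 5.91 to 11.92 CPM (median 7.71) in batch 2, where the wells overlapped. Mrpl58, the release factor relative, fell by 0.54, with 76.89, 80.14 and 77.18 CPM against 97.76, 112.33 and 119.11 CPM and 77.73, 72.11 and 67.31 CPM against 105.15 to 116.34 CPM (median 108.22), without overlap. The count was 6 or 7 when the treated wells numbered 1 or 2, or the vehicle wells numbered 1, were left out. Hepatocyte markers, at 17330.8 to 17921.9 and 17295.7 to 18837.1 CPM, cholangiocyte markers, at 12.4 to 20.1 and 9.7 to 12.9 CPM, Kupffer cell and leukocyte markers, at 26.6 to 29.8 and 13.2 to 18.3 CPM, and stellate cell and fibroblast markers, at 60.7 to 68 and 10.4 to 15.5 CPM, were below vehicle, and their part was not tested.

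Sulfasalazine 100 µM raised 5 members and lowered 0 (all probes 7.17% higher and 5.59% lower), and without a scaling factor 1 was higher and 2 lower. Mrpl14, a bacterial-type protein of the large subunit, rose most of the called members, to 372.37, 362.33 and 349.62 CPM against 247.07, 206.99 and 246.97 CPM in batch 1 and to 450.12, 465.56 and 486.27 CPM against 300.07 to 334.87 CPM (median 320.74) in batch 2. The wells did not overlap, and L2FC was 0.82 (SE 0.107, adjusted p = 4.5e-09) and 0.62 (SE 0.0940, adjusted p = 1.542e-07). Without the treated wells numbered 1 the count was 3. Hepatocyte markers at 100 µM, at 33599.6 to 35241.1 and 31633 to 32583 CPM, were above vehicle in batch 1 and overlapped it in batch 2. Kupffer cell and leukocyte markers and stellate cell and fibroblast markers overlapped vehicle in both batches, and the part of these was not tested. At 4 µM Mrpl51 alone was called, at 0.28, with 0.776% of all probes higher, and this call was lost without the filter on low counts, with probes of a symbol added, and whichever number of treated or vehicle wells was left out.

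Simvastatin 60 µM raised both probes of Mrps18b and lowered no member (all probes 4.18% higher and 3.39% lower). The second probe rose by 0.61 and the main probe by 0.48, and without a scaling factor 2 members were higher and 1 lower. Hepatocyte markers with simvastatin, at 33278 to 36548.9 and 34532.3 to 38441.9 CPM, were above vehicle in batch 1, stellate cell and fibroblast markers, at 110.1 to 131.5 and 37 to 42.3 CPM, were above it in batch 2, Kupffer cell and leukocyte markers, at 35.1 to 39.8 and 18.3 to 25 CPM, were below it in batch 2, and cholangiocyte markers, at 32.9 to 37.6 and 54.4 to 63 CPM, were below it in batch 1 and above it in batch 2. Their part was not tested. Isoniazid 10000 µM lowered Mrps31 by 0.59 and Mrps28 (main probe) by 0.45 and raised none (5.88% higher and 8.11% lower), and without a scaling factor 2 were higher and 2 lower. Mrps31 had 26.72, 26.3 and 32.18 CPM with isoniazid in batch 1 and 39.43, 28.04 and 30.89 CPM in batch 2, of which 1 well lay within the range of vehicle. Hepatocyte markers, at 20405.7 to 24867.8 and 20819.5 to 25565.1 CPM, and stellate cell and fibroblast markers, at 47.2 to 70 and 12.4 to 19.4 CPM, were below vehicle in both batches, Kupffer cell and leukocyte markers, at 41.6 to 81.4 and 23.1 to 26 CPM, were below it in batch 2 only, and their part was not tested. Doxorubicin 2 µM lowered Mrpl14 by 0.38 (1.73% of all probes higher and 2.75% lower), to 182.17, 175.25 and 168.92 CPM in batch 1 and 263.02, 249.66 and 230.4 CPM in batch 2, all below vehicle. With doxorubicin markers of Kupffer cells and leukocytes summed to 4.1 to 7.6 and 4.3 to 8 CPM, of stellate cells and fibroblasts to 8 to 13 and 2 to 2.6 CPM, of endothelial cells to 0 to 0.2 and 0.2 to 0.5 CPM and of hepatocytes to 23598.2 to 26204.8 and 22142.9 to 26607.6 CPM, all below vehicle, and their part was not tested. Medium alone differed from vehicle in Mrpl14 only, which was higher by 0.32 (0.907% of all probes higher), with 253.77, 294.48 and 308.66 CPM in batch 1 and 338.63 to 401.4 CPM (median 354.94) in batch 2. Hepatocyte markers in medium, at 34084.1 to 36375.3 and 34294.2 to 42557.9 CPM, were above vehicle in batch 1 and overlapped it in batch 2, and their part was not tested. With the treated or vehicle wells of 1 number left out of both batches, the counts were 0 to 2 for simvastatin and doxorubicin, 0 to 3 for isoniazid and 0 to 1 for medium.

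Across treatments the members differed in how often they were called. Mrps18b (main probe) was called higher in 9 of the 14 high concentrations and lower in none, from 0.40 with WY14643 200 µM to 1.44 with diclofenac. Mrpl11 was called higher in 8, lower in acetaminophen (-0.70) and higher in WY14643 8 µM (0.73). Mrps10 and Mrps23 were called higher in 6 and lower in none. On the lower side Mrps28 (main probe) was called in 6 and Mrpl16, a core protein of the large subunit, in 4, while Mrps16 and Mrpl20 were called lower in 3 and higher in none. Of all tested probes 1.14% were called higher in 9 or more high concentrations and 7.79% in 6 or more, the latter against 5.06% of members (4 of 79), and 29.5% were called lower in 3 or more, against 10.1% of members (8 of 79). The 12 members not called in any high concentration were Mrpl17, Mrpl36, Mrpl41, Mrpl43, Mrpl45, Mrpl48, Mrpl53, Mrps17, Mrps21, Mrps24, Mrps30 and Mrps36.

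Genes with a pair of tested probes gave a check within the assay. The probes of Mrps18b were both called higher in diclofenac, indomethacin, simvastatin and WY14643 200 µM, and only the second probe was called lower in acetaminophen (-0.74, against -0.25 for the main probe). Of the 9 high concentrations with a higher call of the main probe, the second probe was thus called in only 4. With ranitidine the second probe had 0.36 (edgeR adjusted p = 0.1226) in batch 1 and 1.09 in batch 2. Those of Mrpl15 were both called higher in diclofenac (0.38 and 0.43), indomethacin (0.43 and 0.61) and both concentrations of WY14643, and only the main probe was called lower in acetaminophen (-1.06, against -0.57 for the second). Those of Mrps28 differed most, since with ketoconazole the main probe rose by 0.50 and the second had -0.20, and with ranitidine the second fell by 1.18 and the main probe had -0.04. Which transcripts each probe detects was not given in the sources used here.

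Calls were found in both subunits. With acetaminophen 21 of 50 large-subunit probes fell (median L2FC -0.36) and 12 of 28 small-subunit probes (median -0.41). With ketoconazole 18 and 8 rose (medians 0.40 and 0.32), with WY14643 8 µM 15 and 5 (0.28 and 0.20), and with chloramphenicol 450 µM 2 and 1 (0.18 and 0.14). By class, mitochondria-specific proteins of the large subunit with valproic acid stood lower, with 0 of 20 higher, 4 lower and a median of -0.24, against 4 higher and 1 lower of 30 bacterial-type ones (median 0.06). These counts are descriptions, and the difference between classes was not tested.

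The summed level of the 79 probes, in CPM without scaling, described the group as a whole in every well. Vehicle wells had 4619.6 to 4846.9 CPM in batch 1 (mean 4708.2 ± 121.7, SD, n = 3) and 4384.7 to 4636.3 CPM in batch 2 (4492.3 ± 107, SD, n = 6). With chloramphenicol 450 µM the sum was 5466.5, 5571.4 and 5684.8 CPM in batch 1 (1.18 times the vehicle mean) and 5753.9, 5775.3 and 5866.2 CPM in batch 2 (1.29 times), all above the vehicle wells. At 18 µM it was 4883.7, 4915.7 and 5085.9 CPM in batch 1, above vehicle, and 4266.4, 4586.9 and 4679.9 CPM in batch 2, overlapping it. In batch 1 both concentrations were on the plate without vehicle wells, so plate and treatment cannot be told apart there.

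Other sums above vehicle in both batches were those of diclofenac 400 µM (1.30 and 1.22 times), valproic acid 10000 µM (1.22 and 1.29), ketoconazole 15 µM (1.16 and 1.25) and naproxen 2000 µM (1.06 and 1.07), and acetaminophen 10000 µM was below it (0.621 and 0.675). WY14643 8 µM, with 21 members called higher, had sums of 0.986 and 1.06 times vehicle. A CPM is a share of the reads in a well, and the 10 probes of the highest mean count held less of them with chloramphenicol 450 µM (10.89% and 7.94% of reads) than with vehicle (12.74% and 10.84%). With those probes left out of the total, the sums were 1.16 and 1.25 times vehicle with chloramphenicol 450 µM, 1.22 and 1.15 with diclofenac, 1.19 and 1.24 with valproic acid, 1.15 and 1.24 with ketoconazole and 1.02 and 1.03 with naproxen. Without scaling the median L2FC of all probes was itself 0.13 with chloramphenicol 450 µM, 0.12 with diclofenac and 0.25 with valproic acid, beside 0.28, 0.23 and 0.26 over the members, so the members' median with valproic acid was close to that of all probes. With ketoconazole it was -0.09 over all probes and 0.30 over the members.

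**Figure D5:**
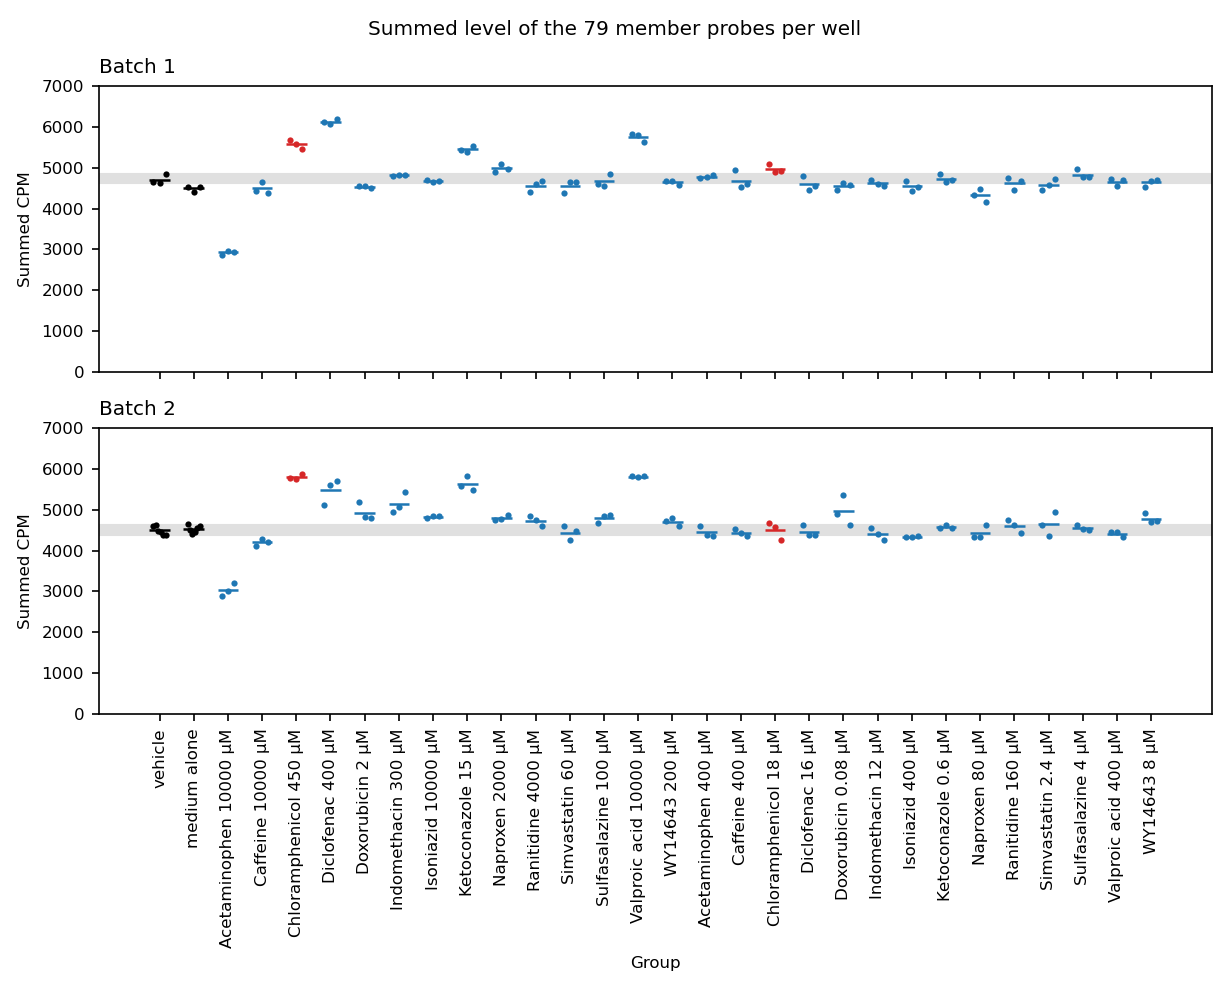
Summed CPM of the 79 member probes (y axis, linear from 0) in every well (points) of vehicle, medium alone and 28 treatments, with the mean of each group as a line, the range of the vehicle wells as a grey band and chloramphenicol in red. The wells of chloramphenicol 450 µM (5466.5 to 5866.2 CPM) lie above the band in both batches, as do those of diclofenac 400 µM, ketoconazole 15 µM and valproic acid 10000 µM, and those of acetaminophen 10000 µM (2858.3 to 3198.5 CPM) lie below it.

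The targeted ST assay, run on lysate of the same wells, held probes of 4 members and is a second measurement of the same cultures. Mrpl19, Mrps16 and Mrps2 had the same probe in both assays, and Mrpl12 had a different probe in each. With chloramphenicol 450 µM Mrpl19 rose in the ST assay by 1.11 (adjusted p = 0.02348) in batch 1 and 0.91 (adjusted p = 0.01167) in batch 2, with 7.80% of the 1781 tested ST probes called higher, whereas its WT L2FC of 0.69 was not called. Mrps2 had an ST L2FC of 0.79 and Mrpl12 of 0.34 there, each past the threshold in batch 2 only. Mrps16 fell in both assays with acetaminophen (-1.65 by ST and -2.02 by WT), caffeine (-0.78 and -0.87) and valproic acid (-1.55 and -1.49), where 32.9%, 26.8% and 23.5% of ST probes were called lower. Mrps2, in contrast, was called in 4 WT comparisons and in 0 of the ST assay. Its L2FC was 0.86 by WT and 0.41 by ST with indomethacin 300 µM, 0.86 and 0.60 with ketoconazole 15 µM, 0.70 and 0.08 with WY14643 200 µM and -0.86 and -0.49 with acetaminophen 10000 µM. Over 29 comparisons with vehicle, the sign of L2FC was the same in both assays in 27 for Mrpl19, 23 for Mrps16, 20 for Mrps2 and 19 for Mrpl12.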

How the data were processed

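Lysate of 186 wells of primary rat hepatocytes was measured by TempO-Seq. The authors aligned the reads with STAR 2.5.3a to rn6 and deposited raw counts of reads per probe and well, which were used as deposited. Groups came from the labels. The members, gene lists and comparisons were chosen with earlier results of these data known.

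Each batch was fitted by itself with edgeR 4.0.16 (R 4.3.3, with the package data.table of version 1.17.8): every treatment a group, TMM scaling, a mean of at least 10 counts over all wells, quasi-likelihood test, Benjamini-Hochberg adjustment over 10689 probes, and a call where adjusted p was under 0.05 in both batches with the same sign. ST counts were tested in the same way. Fits were tested on simulated data. CPM used all probes of a well. Counts are of reads, and depth limits the precision of low members. DESeq2 1.42.0, RLE factors, no scaling, no filter, a minimum L2FC of 0.5, a fit of both batches, vehicle of the same plate, probes of a symbol added, and each replicate left out were alternatives.

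Members were named by rule. These were those called in chloramphenicol 450 µM, 18 µM and medium, and the called member of largest L2FC in each direction in each other treatment. Members next to the catalytic sites, of the stalk and of the S18 family, Mrpl4, Mrps30, Mrpl58 and Mrps36 were also named. Up to 2 called genes per pathway list were named in chloramphenicol 450 µM. Other members given as examples, the third assembly factor, the printed promoters and the motifs were chosen after values were seen. The only genome sequence used was that of the promoter stretches, RefSeq coordinates are of GRCr8, and probe sequences were not used here.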

Additional observations from a re-analysis of the deposited data

Results flagged for a closer look

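The response of a member differed between the batches, by the interaction of batch and treatment in edgeR over all tested probes, in 22 of 2212 pairs of member and treatment, spread over 7 treatments, and 7 of these pairs were called in both batches with the same sign. Of all tested probes, 2.30% of pairs had such a difference. Differences are given as L2FC of batch 2 minus batch 1 from the joint fit, for the named members.

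Mrps18b (main probe) differed by 0.63 with acetaminophen 10000 µM (adjusted p = 0.02984), where it fell by 0.55 in batch 1 and had 0.06 in batch 2. With ketoconazole 15 µM the same probe differed by 0.60 (adjusted p = 0.04768) and rose in both batches, by 0.62 and 1.23. Its second probe differed by 0.71 with caffeine 10000 µM (adjusted p = 0.04474; 0.34 and 1.05) and by 0.72 with ranitidine 4000 µM (adjusted p = 0.02758; 0.36 and 1.09).

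Mrpl14 differed by -0.74 with caffeine 10000 µM (adjusted p = 0.0001271). It rose by 0.31 in batch 1 and fell by 0.43 in batch 2, both past the threshold. Mrpl12 differed by 0.68 with valproic acid 10000 µM (adjusted p = 0.01096), where it fell by 0.36 in batch 1 and rose by 0.33 in batch 2, and by 0.55 with diclofenac 400 µM (adjusted p = 0.04604), where it fell by 0.53 in batch 1 and had 0.03 in batch 2. Mrpl14 with caffeine and Mrpl12 with valproic acid were the 2 pairs called in opposite directions. Each batch is 1 rat, 1 culture and 1 set of libraries, which cannot be told apart.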

How the results depend on the processing

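No paired analysis was possible because the labels give no replicate numbers that pair wells across groups. All members together gave 241 calls (169 higher, 72 lower). No scaling factor gave 122 higher and 118 lower (5.52% and 5.33%), against 6.62% and 9.96% of pairs of all probes. A fit of both batches gave 569 (415 and 154) and an absolute L2FC of at least 0.5 gave 134 (95 and 39). Leaving out replicates gave 175 to 241 (120 to 170 higher, 51 to 72 lower). For the other counts of this section shares of all probes are not given, so they show only how the counts of members move. All 26 named calls held in DESeq2 and in the fit of both batches. Over all alternatives 370 of 442 values of named calls held, 72 were lost and 0 reversed. The named calls were picked for passing in both batches with the same sign, most as the largest of their treatment. That choice nearly fixed that they would hold in a fit of the same wells and not reverse, so these counts are no check of them.

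In the fit of both batches the counts were acetaminophen 57, caffeine 43, chloramphenicol 450 µM 27, diclofenac 45, doxorubicin 10, indomethacin 45, isoniazid 13, ketoconazole 53, naproxen 29, ranitidine 46, simvastatin 13, sulfasalazine 100 µM 27, valproic acid 41, WY14643 200 µM 39 and 8 µM 42, medium 7, other low concentrations 39, and chloramphenicol 450 µM 14 against 18 µM and 31 against the other high concentrations. With the minimum L2FC they were caffeine 9, chloramphenicol 1, diclofenac 14, doxorubicin 0, indomethacin 10, isoniazid 0, ketoconazole 15, naproxen 4, simvastatin 1, sulfasalazine 2, WY14643 200 µM 7, medium 0, other low concentrations 0 and chloramphenicol against other chemicals 3.

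Without scaling, acetaminophen had 1 higher and 53 lower, ketoconazole 17 higher and 1 lower, chloramphenicol had 7, indomethacin 10, isoniazid 4, sulfasalazine 3, valproic acid 32, WY14643 200 µM 9, medium 0, other low concentrations 2, and chloramphenicol 3 against 18 µM and 28 against other chemicals. Median L2FC of the members changed sign there, to -0.0058 with ranitidine, -0.0155 with simvastatin, -0.0647 with sulfasalazine 100 µM, -0.0375 with WY14643 8 µM, -0.053 with medium, and -0.0079, -0.0591, -0.0674 and -0.0321 with the low concentrations of acetaminophen, indomethacin, naproxen and valproic acid. Without the filter, doxorubicin had 0, isoniazid 1, naproxen 6, simvastatin 1, sulfasalazine 3, WY14643 200 µM 10 and medium 0. With RLE factors doxorubicin had 0 and chloramphenicol 2. With probes added by symbol, doxorubicin had 0, simvastatin 1, other low concentrations 0, and chloramphenicol 2 against 18 µM and 7 against other chemicals. With vehicle of the same plate simvastatin had 1 and other low concentrations 2, and with DESeq2 the latter had 3.

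With replicates left out, the counts were chloramphenicol 0 to 4, doxorubicin 0 to 2, isoniazid 0 to 3, ketoconazole 13 to 27, naproxen 6 to 12, simvastatin 0 to 2, sulfasalazine 3 to 7, WY14643 200 µM 10 to 18, medium 0 to 1, other low concentrations 0 to 1 and chloramphenicol against other chemicals 3 to 5. Fewer wells were tested there, and otherwise the cause was not tested.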
